A study of Mus musculus with 12 samples.

Results

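The genes described here are the circadian clock genes Clock, Per1, Per2, Per3, Cry1, Cry2, Nr1d1, Nr1d2 and Dbp, chosen by symbol from a table of read counts. They make up 9 of the 33024 gene symbols in that table, and all 9 were among the 16059 genes that passed the filter on low counts. RNA was sequenced from the cortex of 12 C57BL/6 mice, 7 in the Control group (vehicle) and 5 in the EtOH group. The mice belonged to Arm #2 of a two-bottle choice drinking-in-the-dark experiment, in which animals aged 30 days at the start chose between water and 20% (v/v) ethanol, or had water in both bottles as controls. Access lasted 12 h per session from 3 h after lights off, for 35 sessions, and was followed by 14 days without ethanol and then by behavioural tests in both groups. Animals were anaesthetised with Avertin and perfused with saline before the cortex was frozen, so all measurements were made in abstinence. The hour at which each mouse was harvested was not given in the sources used here, and a difference in hour between mice or groups cannot be told apart from the other differences between them.

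The mammalian clock is a feedback loop of transcription. CLOCK pairs with BMAL1 to switch on the Per and Cry genes through E-box sequences, and the PER and CRY proteins return to the nucleus and block that pair. In a second loop the same pair drives Nr1d1 and Nr1d2, whose REV-ERB proteins repress Bmal1, and it drives Dbp, a transcription factor that acts on D-box sequences of other clock and output genes. The loop runs in most cells, the cortex included, and is set to the light cycle by the suprachiasmatic nucleus. Per1 and Per2 are also known as genes that neuronal activity and glucocorticoid hormones switch on directly.

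Total counts ranged from 31768079 to 40690226 in controls and from 32048725 to 42183031 in EtOH mice, so that 3 counts, taken as the detection floor, stood for 0.07 to 0.094 CPM (reads of a gene, scaled to the same library size in every mouse), and every clock gene lay far above it. Cortical markers were present in every mouse, with a summed level over 9 genes of 5929 to 7552 CPM in controls and 6742 to 7889 CPM in EtOH mice. Of these 9, 4 were higher and 1 lower at an edgeR adjusted p under 0.05, and 1 (Fezf2, higher) was called. Markers of other brain regions and cell types moved with the groups: all 12 striatal markers were called lower (summed level 1009 to 2418 CPM in controls and 236 to 305 CPM in EtOH mice) and all 7 hippocampal markers were called higher (29.6 to 36.5 CPM against 125 to 165 CPM). All 8 oligodendrocyte markers were lower at an edgeR adjusted p under 0.05, and 2 of them were called (summed 4587 to 6077 CPM against 3069 to 5467 CPM). EtOH 2 stood apart within its group at 5467 CPM, inside the control range, with the other EtOH mice at 3069 to 3821 CPM. Of 7 microglial markers 4 were lower at an edgeR adjusted p under 0.05 and 0 were called, and their sum did not overlap between groups (296 to 324 CPM in controls, 255 to 279 CPM in EtOH mice). Of 7 astrocyte markers 3 were higher at an edgeR adjusted p under 0.05 and 1 (Gfap) was called (summed 3506 to 4006 CPM against 3795 to 4324 CPM). Of 4 thalamic markers only Slc17a6 was called, higher, and 2 of the other 3 had negative log2 fold changes. Of 5 endothelial markers 1 was called lower (Ly6c1), and of 5 blood markers 0 were called. Of 4 tested choroid plexus markers 2 were called higher (these 4 summed, 7.50 to 21.4 CPM against 11.2 to 981 CPM). The part of these other tissues in the clock gene values was not tested. Only 3 of 7 markers of the suprachiasmatic nucleus passed the filter and Six6 had no count in any mouse, with a summed level of the 3 of 29.8 to 37.1 CPM in controls and 26.4 to 32.8 CPM in EtOH mice. In bulk tissue, fewer cells of a type and less RNA per cell cannot be told apart.

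The comparison of EtOH with Control mice asked whether the clock genes differed in cortex after ethanol drinking and abstinence. None of the 9 was called different, where a call rests on edgeR's quasi-likelihood test with a Benjamini-Hochberg adjusted p under 0.05 and on a log2 ratio of more than 0.5 either way. Of all genes tested, 8.29% were called by this rule (1331 of 16059), 4.2% higher and 4.09% lower. With no fold change minimum, 1 of 9 clock genes passed (Nr1d1, higher), beside 23.7% of all genes (12.1% higher and 11.6% lower). No clock gene had values that separated the groups without overlap, beside 9.81% of all genes (4.84% higher and 4.96% lower). At an unadjusted p under 0.05, 2 of the 9 passed (Clock and Nr1d1), beside 36.5% of all genes, and DESeq2 and limma voom also called 0. The log2 fold changes, EtOH over Control, ran from -0.20 for Cry1 to 0.42 for Per1 with a median of 0.09, 6 of them positive and 3 negative. Over all genes tested the median size of the log2 fold change was 0.15, and its signed median was 7.2e-05.

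**Figure D1:**
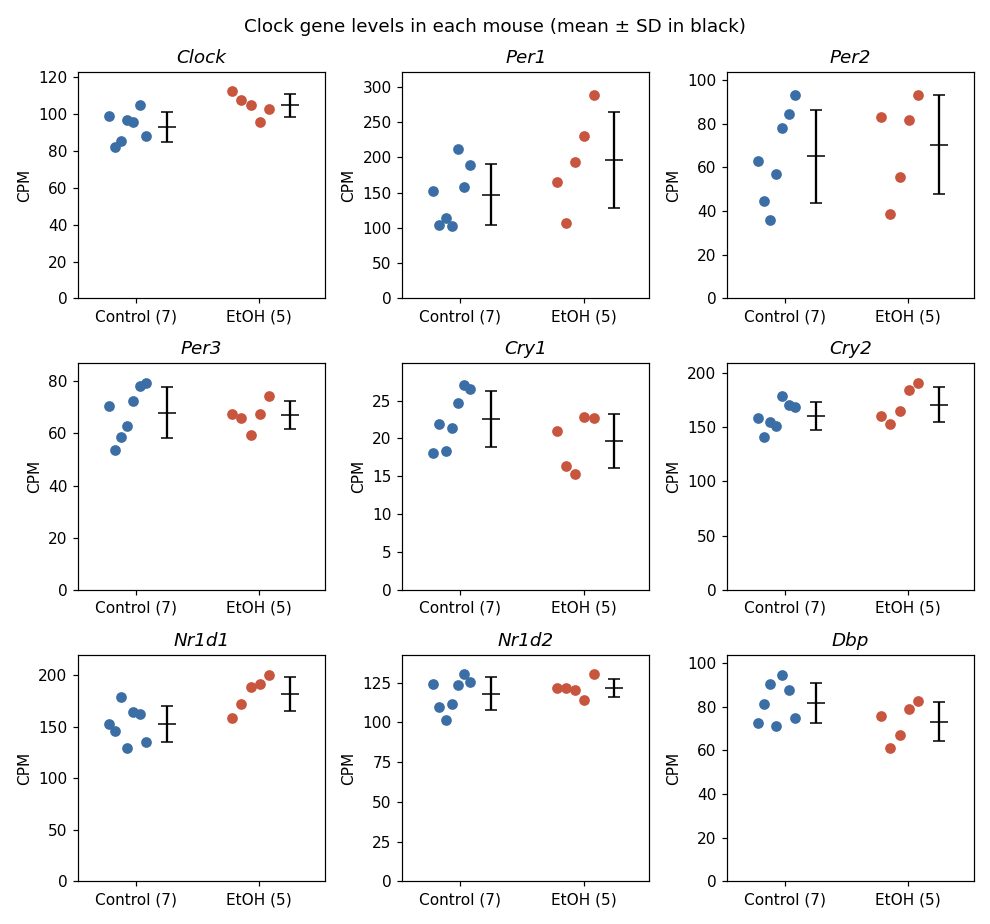
Level of each clock gene in CPM (vertical axes, from 0) in each of 7 Control and 5 EtOH mice (points, in the order of mouse number), with the group mean ± SD in black. The groups overlap in every panel; for Clock and for Nr1d1, 3 of 5 EtOH mice lie above every control, and Per1 and Per2 spread most within groups.

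Clock, which encodes the DNA-binding partner of BMAL1, lies on chromosome 5 (GRCm39 chr5:76342860-76452846, minus strand). Its level in controls ran from 82.5 to 104.8 CPM with a median of 96.0 CPM. In the EtOH mice 1 to 5 it was 112.4, 107.7, 105.0, 95.8 and 103.0 CPM. EtOH mice lay toward the upper end, and 3 of the 5 were above every control, while EtOH 4 was just under the control median. The means were 93.3 ± 8.07 CPM (SD, n = 7) and 104.8 ± 6.16 CPM (SD, n = 5), which gave a log2 fold change of 0.17 (SE 0.063, 95% interval 0.035 to 0.30) with an adjusted p of 0.0623 by edgeR. The gene thus did not pass, but it did so without Control 6 (edgeR adjusted p 0.0274), without EtOH 4 (0.0434) and with DESeq2 (0.0448). Exons of Tmem165 and of 2 pseudogenes overlap 12.6% of its exon length, and the log2 fold change of Tmem165 itself was 0.08 with an edgeR adjusted p of 0.414.

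The Per genes encode the repressors that set the pace of the loop, and Per1 and Per2 are also its most readily induced members. Per1 lies on chromosome 11 (GRCm39 chr11:68986035-69002300, plus strand), and its promoters are shown because it had the largest fold change of the 9. RefSeq gives 2 start sites, here as 250 bases before to 50 bases after the start in GRCm38.p6, chr11:69098699-69098998 and chr11:69099902-69100201. Capitals in the first mark an E-box (CACGTG, from position -166) and a ROR/REV-ERB half-site on the reverse strand (TGACCT, from -137), and capitals in the second mark a cAMP half-site (TGACGT, from -132), the kind of element through which activity-driven signals reach genes.

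Per1, first start: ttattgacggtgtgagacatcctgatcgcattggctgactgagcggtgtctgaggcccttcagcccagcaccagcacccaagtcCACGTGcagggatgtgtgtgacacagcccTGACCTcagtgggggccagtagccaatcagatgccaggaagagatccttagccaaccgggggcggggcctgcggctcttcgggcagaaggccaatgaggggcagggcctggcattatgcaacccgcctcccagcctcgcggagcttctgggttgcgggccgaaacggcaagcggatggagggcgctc

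Per1, second start: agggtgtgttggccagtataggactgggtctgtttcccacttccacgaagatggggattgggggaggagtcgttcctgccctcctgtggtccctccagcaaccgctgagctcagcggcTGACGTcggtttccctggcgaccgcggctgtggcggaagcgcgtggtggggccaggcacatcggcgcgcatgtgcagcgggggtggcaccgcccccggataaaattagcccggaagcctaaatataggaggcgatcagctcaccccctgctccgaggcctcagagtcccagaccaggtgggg

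Both strands of every promoter in the RefSeq table were searched for these letters, and of 32851 promoters of this length 7.15% held CACGTG, 16.3% held AGGTCA or its complement TGACCT, and 7.51% held TGACGT, which includes the longer TGACGTCA held by 1.79%. A match is a description of the letters and not a site of binding.

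The level of Per1 in controls ran from 102.0 to 211.8 CPM with a median of 152.4 CPM. It was, in EtOH mice 1 to 5, 164.2, 107.5, 192.9, 230.5 and 287.9 CPM. EtOH 4 and EtOH 5 were above every control, EtOH 2 was among the lowest mice of either group, and the spread within each group was wide. The highest mouse exceeded the lowest 2.08 times among controls and 2.68 times among EtOH mice. The means were 147 ± 43.0 CPM (SD, n = 7) and 197 ± 68.0 CPM (SD, n = 5), with a log2 fold change of 0.42 (SE 0.21, 95% interval -0.025 to 0.86) and an edgeR adjusted p of 0.159. The gene did not pass, and the interval reaches from no change to well past the fold change minimum. Without EtOH 2 the log2 fold change was 0.57 with an edgeR adjusted p of 0.0358, and Per1 was then called higher. Over all single mice left out, the log2 fold change ranged from 0.24 to 0.57 and the adjusted p from 0.0358 to 0.447.

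Per2, the partner of Per1 in the repressor complex, lies on chromosome 1 (GRCm39 chr1:91343700-91387069, minus strand). It ran from 35.7 to 93.0 CPM in controls, with a median of 62.8 CPM. The EtOH mice 1 to 5 had 83.0, 38.7, 55.5, 81.8 and 93.2 CPM. The EtOH range lay almost wholly inside that of the controls, with EtOH 5 marginally above it. The log2 fold change was 0.12 (SE 0.22, 95% interval -0.36 to 0.59, edgeR adjusted p 0.747), from means of 65.1 ± 21.2 CPM (SD, n = 7) and 70.5 ± 22.6 CPM (SD, n = 5). The log2 fold change of Per2 ran from -0.0074 without EtOH 5 to 0.263 without EtOH 2, and of the fits that left out a mouse only that without EtOH 5 turned its direction. The within-group SD of log2 CPM was 0.51 for Per2 and 0.47 for Per1, larger than in 91.7% and 89.9% of all genes tested, so a difference of the size of the fold change minimum could be missed in either gene.

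Per3, the paralog least needed for rhythm, lies on chromosome 4 (GRCm39 chr4:151081373-151129140, minus strand). Its promoter (GRCm38.p6 chr4:151044616-151044915, minus strand) is shown because it held a pair of D-boxes, the element on which DBP acts, a motif found in 0.938% of all promoters. Capitals mark TTATGTAA from positions -205 and -158.

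Per3: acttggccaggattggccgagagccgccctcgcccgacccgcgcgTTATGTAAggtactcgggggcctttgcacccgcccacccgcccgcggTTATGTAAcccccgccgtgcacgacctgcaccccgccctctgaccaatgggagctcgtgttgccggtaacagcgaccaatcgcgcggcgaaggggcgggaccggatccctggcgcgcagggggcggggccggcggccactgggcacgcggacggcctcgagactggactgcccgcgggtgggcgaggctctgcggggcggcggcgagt

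Per3 ran from 53.6 to 79.2 CPM in controls with a median of 70.6 CPM, and in EtOH mice 1 to 5 it was 67.6, 66.1, 59.4, 67.4 and 74.4 CPM. All EtOH mice lay within the control range. The means were 67.9 ± 9.79 CPM (SD, n = 7) and 67.0 ± 5.35 CPM (SD, n = 5), and the log2 fold change of -0.02 had a 95% interval of -0.21 to 0.17 (edgeR adjusted p 0.891), which leaves out the fold change minimum on both sides. Its sign turned without Control 6, Control 7 or EtOH 3. Exons of Uts2, a gene that did not pass the filter, and of Gm69183 overlap 5.75% of its exon length.

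Cry1 and Cry2 encode the cryptochromes, the strongest repressors of the CLOCK and BMAL1 pair. Cry1 (GRCm39 chr10:84967560-85021252, minus strand) ran from 18.0 to 27.1 CPM in controls with a median of 22.0 CPM. EtOH mice 1 to 5 had 21.0, 16.3, 15.4, 22.8 and 22.7 CPM. EtOH 2 and EtOH 3 were below every control and no EtOH mouse reached the 3 highest controls. The log2 fold change was -0.20 (SE 0.12, 95% interval -0.46 to 0.059, edgeR adjusted p 0.253), from 22.5 ± 3.67 CPM (SD, n = 7) to 19.6 ± 3.56 CPM (SD, n = 5), and it did not pass. Its promoter held an E-box from position -60 and the related CACGTT on the reverse strand from -79, a motif found in 4.68% of promoters.

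Cry2 (GRCm39 chr2:92233894-92264474, minus strand) ran from 140.6 to 178.3 CPM in controls, with a median of 158.1 CPM. In EtOH mice 1 to 5 it was 160.2, 152.9, 164.9, 183.6 and 190.6 CPM. EtOH 4 and EtOH 5, the mice highest in Per1, were above every control. The log2 fold change was 0.09 (SE 0.068, 95% interval -0.052 to 0.23, edgeR adjusted p 0.352), from 160 ± 12.9 CPM (SD, n = 7) to 170 ± 16.0 CPM (SD, n = 5), and the interval leaves out the fold change minimum. Without EtOH 5 the log2 fold change was 0.0456. Its promoter is shown because Cry2 followed Per1 most closely between control mice. The letters CACGTT stand on the reverse strand, so AACGTG is in capitals from position -166 (GRCm38.p6 chr2:92434020-92434319, minus strand), and the letters of the Per1 E-box and cAMP half-site were not found in this window.

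Cry2: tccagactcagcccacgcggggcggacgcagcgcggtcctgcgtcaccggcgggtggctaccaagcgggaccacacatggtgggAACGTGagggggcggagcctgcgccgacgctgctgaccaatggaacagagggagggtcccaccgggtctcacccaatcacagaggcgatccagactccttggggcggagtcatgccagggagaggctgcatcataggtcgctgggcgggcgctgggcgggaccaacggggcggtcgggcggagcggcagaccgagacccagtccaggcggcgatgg

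The Nr1d genes encode REV-ERB alpha and beta, haem-binding repressors of Bmal1. Nr1d1 (GRCm39 chr11:98658752-98666188, minus strand) was the clock gene with the smallest adjusted p. Its promoter (GRCm38.p6 chr11:98775328-98775627, minus strand) holds CACGTT on the reverse strand, shown as AACGTG in capitals from position -28. The bases just after this RefSeq start were not found in the transcripts of the gene in the Gencode annotation. It was the only start of Nr1d1 among the promoters searched.

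Nr1d1: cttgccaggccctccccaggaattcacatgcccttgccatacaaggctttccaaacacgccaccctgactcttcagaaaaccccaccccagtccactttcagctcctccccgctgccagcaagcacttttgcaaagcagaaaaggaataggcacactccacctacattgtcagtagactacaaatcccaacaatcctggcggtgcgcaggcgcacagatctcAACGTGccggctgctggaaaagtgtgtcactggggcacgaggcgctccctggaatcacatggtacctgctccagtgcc

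Nr1d1 ran from 129.2 to 178.9 CPM in controls, with a median of 152.9 CPM. In EtOH mice 1 to 5 it was 158.7, 171.7, 188.2, 190.9 and 199.9 CPM. Every EtOH mouse exceeded the control median and 3 of the 5 exceeded every control, while Controls 3, 5 and 6 overlapped the EtOH range. The mean rose from 152 ± 17.4 CPM (SD, n = 7), and reached 182 ± 16.5 CPM (SD, n = 5), with a log2 fold change of 0.25 (SE 0.078, 95% interval 0.090 to 0.42, edgeR adjusted p 0.0253), which is under the fold change minimum of 0.5. The adjusted p stayed under 0.05 in 8 of 12 fits that left out a single mouse. It was 0.0533 without Control 4, 0.0578 without EtOH 3, 0.0631 without EtOH 4 and 0.0789 without EtOH 5. Exons of Thra, the thyroid hormone receptor alpha gene on the opposite strand, and of Gm31862 overlap 52.8% of the exon length of Nr1d1, and whether counting used the strand was not given in the sources used here. Thra was more abundant, 689 ± 43.9 CPM in controls (SD, n = 7) and 764 ± 71.1 CPM in EtOH mice (SD, n = 5), with a log2 fold change of 0.15 (SE 0.062, edgeR adjusted p 0.0945). The value of Nr1d1 is therefore uncertain, since without strand the reads of both genes cannot be told apart in the shared exons. Whether such reads were counted or left out was not given.

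Nr1d2, whose product acts beside that of Nr1d1, lies on chromosome 14 (GRCm39 chr14:4230545-4266624, plus strand) and shares no exon with another gene. It ran from 101.6 to 130.5 CPM in controls with a median of 123.3 CPM, and in EtOH mice 1 to 5 it was 121.8, 121.7, 120.3, 114.3 and 130.5 CPM. The EtOH mice lay within the control range, but for EtOH 5, which exceeded the highest control by less than the printed digits. The means were 118 ± 10.4 CPM (SD, n = 7) and 122 ± 5.81 CPM (SD, n = 5), and the log2 fold change of 0.04 had a 95% interval of -0.088 to 0.17 (edgeR adjusted p 0.654). The difference between the fold changes of Nr1d1 and Nr1d2 was not tested.

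Dbp, the clock output factor, lies on chromosome 7 (GRCm39 chr7:45354512-45359627, plus strand), and none of the searched letters was found in its promoter window. It ran from 71.1 to 94.4 CPM in controls, with a median of 81.1 CPM. Values in EtOH mice 1 to 5 were 75.8, 60.9, 67.1, 78.9 and 82.6 CPM. EtOH 2 and EtOH 3 were below every control and only EtOH 5 exceeded the control median. The log2 fold change was -0.16 (SE 0.086, 95% interval -0.34 to 0.020, edgeR adjusted p 0.185), from 81.7 ± 9.25 CPM (SD, n = 7) to 73.1 ± 8.87 CPM (SD, n = 5), and it did not pass in any fit run. Exons of Sphk2 overlap 15.5% of its exon length. Sphk2 was less abundant than Dbp, 33.1 ± 2.16 CPM in controls (SD, n = 7) and 29.5 ± 2.32 CPM in EtOH mice (SD, n = 5). Its log2 fold change was -0.16 (SE 0.064, edgeR adjusted p 0.0713). The value of Dbp is uncertain for the shared part of its exons, and the part of Sphk2 reads in it was not tested. Smaller shares of exon length, 4.36% in Per1 (Gm72400) and 3.45% in Cry2 (D930015M05Rik), are also overlapped, which left Per2, Cry1 and Nr1d2 as the members with no overlap.

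The plot of Nr1d1 against Dbp shows both in each mouse. Their ratio, taken up after the values had been seen and therefore given as a description without a test, was 2.11, 1.79, 1.98, 1.82, 1.74, 1.85 and 1.81 in Control mice 1 to 7. It was 2.09, 2.82, 2.81, 2.42 and 2.42 in EtOH mice 1 to 5. The mean ratio was 1.87 ± 0.130 (SD, n = 7) against 2.51 ± 0.305 (SD, n = 5), and EtOH 1 lay inside the control range while the other 4 lay above it. Both genes carry overlapping exons, as given above. For pairs within a family the ratio overlapped more: Per1 to Per2 was 2.33 ± 0.496 in controls and 2.83 ± 0.551 in EtOH mice, and Cry2 to Cry1 was 7.22 ± 1.02 and 8.84 ± 1.24 (SD, n = 7 and 5).

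**Figure D2:**
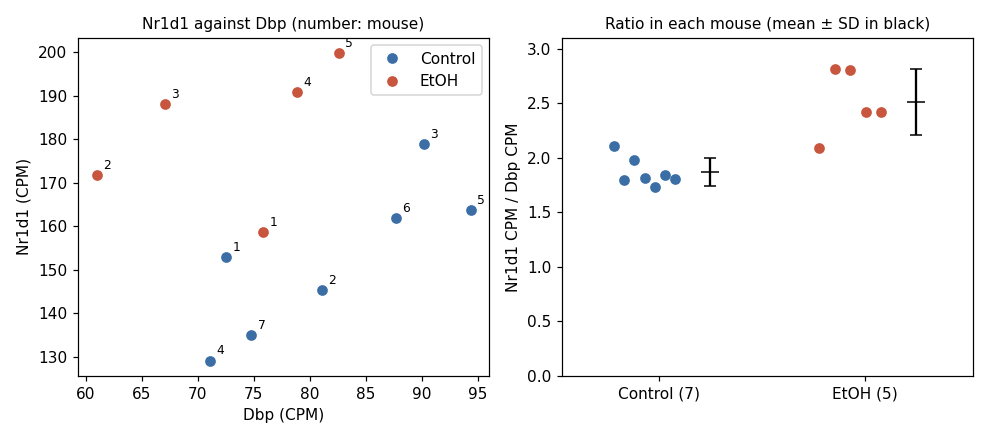
Left, level of Nr1d1 (vertical axis, CPM) against Dbp (horizontal axis, CPM) in each mouse, numbered within its group; right, the ratio of Nr1d1 to Dbp in each mouse with the group mean ± SD in black. Ratios of 4 of 5 EtOH mice lie between 2.42 and 2.82, above all controls, and EtOH 1 at 2.09 lies within the control range.

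Levels can be compared between genes only per length, so CPM was divided by the exon length of each gene in kilobases. In controls Nr1d1 stood highest at 47.0 ± 5.36 CPM per kb, followed by Dbp at 23.5 ± 2.67, Per1 at 19.2 ± 5.62 and Cry2 at 18.6 ± 1.51 CPM per kb (SD, n = 7). Nr1d2 followed at 13.1 ± 1.15 and Per2 at 9.91 ± 3.22 CPM per kb. Per3 at 6.47 ± 0.933, Clock at 5.41 ± 0.468 and Cry1 at 4.53 ± 0.737 CPM per kb were lowest. Exon length was the union of the exons of all annotated transcripts, longest in Clock (17251 bases), so every place depends on the annotation. The places of Nr1d1 and Dbp are uncertain, since exons of other genes overlap 52.8% and 15.5% of their exon length. Control ranges of neighbours in this order overlapped except between Nr1d1 and Dbp and between Cry2 and Nr1d2. In EtOH mice the order was the same but for Per1, at 25.7 ± 8.88 CPM per kb, which stood above Dbp at 21.1 ± 2.56 CPM per kb (SD, n = 5), with ranges that overlapped widely.

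Other genes of the clock were read from 3 lists. In the activating arm, 1 of 6 genes was called higher and 0 lower, beside 4.2% and 4.09% of all genes, with a median log2 fold change of 0.13. The called gene was Arntl2, which encodes BMAL2, a partner of CLOCK related to BMAL1. It was 11.2 ± 1.97 CPM in controls (SD, n = 7) and 16.0 ± 2.00 CPM in EtOH mice (SD, n = 5), with a log2 fold change of 0.51 (SE 0.12, edgeR adjusted p 0.00412), and 4 of 5 EtOH mice exceeded every control. Its adjusted p stayed under 0.05 in all 19 alternatives run, but its log2 fold change lies at the minimum. The call was lost in 4 of 12 fits that left out a mouse, with log2 fold changes of 0.456 without Control 2, 0.467 without Control 4, 0.460 without EtOH 2 and 0.459 without EtOH 3. Arntl, which encodes BMAL1 itself, was 32.1 CPM in controls and 34.9 CPM in EtOH mice, with a log2 fold change of 0.12 (SE 0.083, edgeR adjusted p 0.311), and of 0.0392 without EtOH 2. Npas2, which can stand in for CLOCK in the forebrain, fell by 0.27 on the log2 scale (SE 0.074, edgeR adjusted p 0.0131), from 74.4 ± 7.01 CPM (SD, n = 7) to 61.6 ± 5.67 CPM (SD, n = 5), under the fold change minimum. The change of Npas2 went together with lower striatal markers, as given above, and their part in it was not tested.

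Among 11 repressors and modifiers, such as the casein kinases that mark PER proteins for breakdown, 0 were called and 0 passed at an adjusted p under 0.05 by edgeR, with a median log2 fold change of 0.01. Ciart, a repressor of the CLOCK and BMAL1 pair, had a log2 fold change of 0.19 (SE 0.17, edgeR adjusted p 0.445), which ran from 0.0579 without EtOH 5 to 0.290 without EtOH 1. None of the 3 other bZIP output factors was called. Tef and Hlf, which like Dbp bind D-boxes, had log2 fold changes of 0.07 (edgeR adjusted p 0.451) and 0.08 (edgeR adjusted p 0.468). Nfil3, which represses through the same element, had a mean of 7.37 CPM in controls and 9.77 CPM in EtOH mice. Its log2 fold change of 0.40 (SE 0.14) had an edgeR adjusted p of 0.0438, which stayed under 0.05 in 3 of 12 fits that left out a mouse. It lay above 0.05 when a single mouse among Controls 2 to 7 or EtOH 3 to 5 was left out, and reached 0.171 without EtOH 5.

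**Figure D3:**
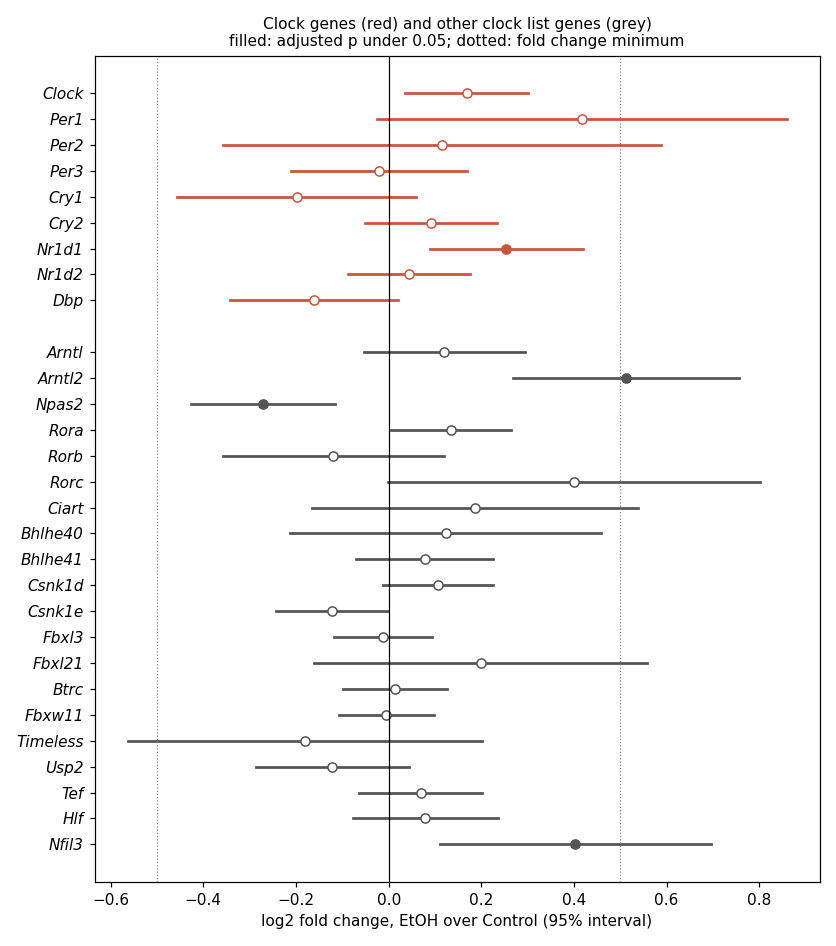
Log2 fold change, EtOH over Control (horizontal axis), with its 95% interval (lines) for the 9 clock genes (red) and 20 further clock genes (grey), by edgeR. Filled points have an adjusted p under 0.05 (Nr1d1, Arntl2, Npas2 and Nfil3), dotted lines mark the fold change minimum of 0.5, and of these genes only Arntl2 passes both limits.

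Per1 and Per2 respond to glucocorticoids and to neuronal activity, and a list was read for each input. Of 11 glucocorticoid-responsive genes 1 was called higher and 2 lower, with a median log2 fold change of -0.17, beside 4.2% of all genes called higher and 4.09% called lower. Only 3 of the 11 log2 fold changes were positive. With no fold change minimum, 1 passed higher and 4 lower at an edgeR adjusted p under 0.05, beside 12.1% and 11.6% of all genes. Zbtb16, a zinc finger transcription factor, rose by 0.75 (edgeR adjusted p 0.000672) with no overlap between groups. The kinase gene Sgk1 fell by 0.57 (edgeR adjusted p 0.0128) and Cdkn1a, which encodes the cell cycle inhibitor p21, fell by 1.0 (edgeR adjusted p 0.000974), all on the log2 scale. Without Control 7 the value for Sgk1 was -0.440, under the fold change minimum, and its call was lost. Between groups, striatal and oligodendrocyte markers were lower as well, as given above. The oligodendrocyte sum of EtOH 2 lay inside the control range, and without EtOH 2 the log2 fold change was -0.895 for Cdkn1a and -0.571 for Sgk1. The part of these tissues in either fall was not tested. Hippocampal markers were higher, as given above, and their part in the rise of Zbtb16 was not tested. Of 11 activity-induced genes 2 were called higher and 0 lower, beside 4.2% and 4.09% of all genes, the median log2 fold change was 0.60 and all 11 were positive, where the signed median of all genes was 7.2e-05. These 11 signs come from the same mice and are not separate results. The mean log2 CPM of the list was above every control in EtOH 3 to 5 (6.42, 6.62 and 6.87) and inside the control range in EtOH 1 and 2 (5.15 and 5.32). The list was chosen with earlier results of these data known. Fos, an early transcription factor of activated neurons, was higher by 0.92 (edgeR adjusted p 0.0440) and its partner Junb by 0.75 (edgeR adjusted p 0.0436). Each passed in only 4 of 12 fits that left out a mouse, and was lost when a single mouse among Controls 1, 2, 3, 4 and 6 or EtOH 3 to 5 was left out. The edgeR adjusted p values were 0.143 and 0.142 without EtOH 5, and those of DESeq2 with all mice were 0.0730 and 0.0752.

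How the clock genes varied among mice of the same group was examined over the 7 controls, since the 5 EtOH mice were under the minimum set here for a correlation. The relation of each gene to Dbp made up a family of 8. Nr1d1 had the highest correlation of log2 CPM with Dbp, with a Pearson r of 0.82 (exact two-sided permutation p 0.0296, adjusted 0.237) and a Spearman rho of 0.86 (exact permutation p 0.0238, adjusted 0.190), and the r was 0.77 without Controls 4 and 5, which lie farthest from the Dbp median. The other 7 ran from -0.09 to 0.41. None of the 8 passed the adjustment.

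All 36 pairs, a family added after the values had been seen, held 28 positive correlations, of which 0 passed with an adjusted p under 0.05 by exact permutation. The highest was between Per2 and Nr1d2, with r 0.94 (exact permutation p 0.00139, adjusted 0.05) and rho 0.93 (adjusted 0.0810), and r 0.91 without the 2 farthest mice. Per2 and Per3 had r 0.92 (exact permutation, adjusted p 0.0619) and rho 0.96 (adjusted 0.0810), and r 0.97 without the 2 farthest mice. Per1 and Cry2 had r 0.92 (exact permutation p 0.00516, adjusted 0.0619) and rho 0.93, and r 0.90 without the 2 farthest mice. Over these controls Nr1d1 and Dbp had r near 0.82 with each other but between -0.30 and 0.41 with the other members. Over all 12 mice with the group mean removed, Dbp was less set apart. Its r was then 0.65 with Nr1d1, 0.61 with Cry2, 0.57 with Per1 and 0.54 with Cry1, and -0.16 to 0.37 with the rest. The values of a mouse come from 1 library each, so the points of every pair share depth and tissue makeup.

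**Figure D4:**
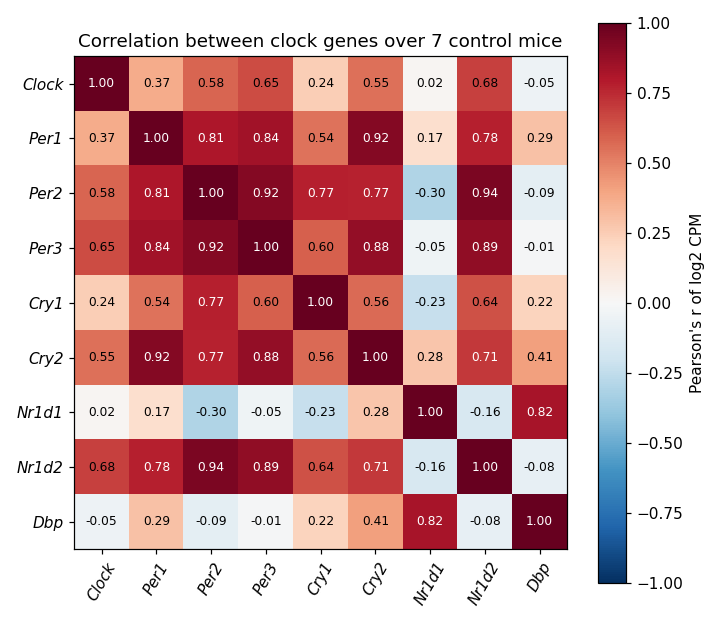
Pearson's r of log2 CPM between clock genes over 7 control mice, from blue (negative) to red (positive), with the value in each cell and 1 on the diagonal. Per1, Per2, Per3, Cry2 and Nr1d2 form a block of high values, while Nr1d1 and Dbp are high with each other (0.82).

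Each clock gene was also set against the mean log2 CPM of the activity-induced list over the 7 controls, a family of 9 added after the values had been seen. This mean was 5.43, 4.86, 5.43, 5.02, 6.35, 5.47 and 6.11 in Controls 1 to 7, so Controls 5 and 7 stood apart at the top. In EtOH mice 1 to 5 it was 5.15, 5.32, 6.42, 6.62 and 6.87, with EtOH 3 to 5 above every control. Per1 followed it with r 0.93 (exact permutation p 0.00119, adjusted 0.0107) and rho 0.93 (exact permutation p 0.00675, adjusted 0.0304), and with r 0.79 without Controls 5 and 7. Cry2 followed it with r 0.90 (exact permutation p 0.00476, adjusted 0.0214) and rho 0.93 (adjusted 0.0304), and with r 0.87 without the same mice. These 2 of 9 passed. For Dbp the r was 0.38 (exact permutation p 0.380, adjusted 0.489) and rho 0.57 (exact permutation p 0.20, adjusted 0.343). The list does not contain any of the 9 genes. EtOH 2, which was low in Per1, was also among the lower mice on the list, and EtOH 5 was the highest mouse in both.

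**Figure D5:**
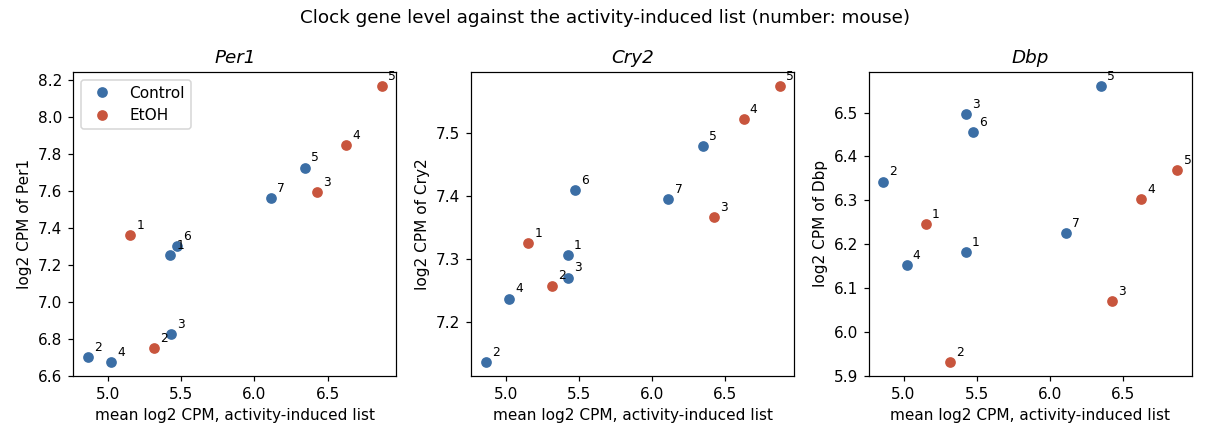
Level of Per1, Cry2 and Dbp (vertical axes, log2 CPM) against the mean log2 CPM of 11 activity-induced genes (horizontal axes) in each Control and EtOH mouse, numbered within its group. Over controls r was 0.93 for Per1, 0.90 for Cry2 and 0.38 for Dbp. Among EtOH mice, EtOH 5 was highest on both axes, while EtOH 1 was lowest on the list but above EtOH 2 in all 3 genes.

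The genes whose levels followed a clock gene most closely were sought over all 12 mice after the group mean was removed, among 14172 genes with a mean of at least 1 CPM. For Per2 these were Hivep3 (r 0.98), Irs2 (0.95), Ciita (0.95), Rhobtb2 (0.95) and Gramd1b (0.94). Irs2, an adaptor of insulin signalling, and Ciita, the master regulator of MHC class II genes, were also called higher in EtOH mice, with log2 fold changes of 0.54 and 0.71 (edgeR adjusted p 0.0170 and 0.0251). For Dbp they were Pak6 (r 0.88), C2cd4c (0.88), Nrarp (0.88), Ric8a (0.86) and Mvd (0.86), none of them called. Among the clock genes themselves, r with Per2 was 0.82 for both Per1 and Cry1 and -0.09 for Nr1d1, and r with Dbp was 0.65 for Nr1d1, 0.61 for Cry2, 0.57 for Per1 and 0.54 for Cry1. Values this high are the top of 14172 and are given as a description.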

How the data were processed

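Cortex RNA of 12 mice (7 Control, 5 EtOH) was extracted and sequenced by BGI. The authors checked reads with FastQC (0.11.9), aligned them with STAR to GRCm39 (Gencode Release 28), counted them with featureCounts and compared groups with DESeq2. The authors deposited expected counts per gene symbol without normalization; 61 of 33024 symbols held values that are not whole, and counts were rounded. All columns were matched to a mouse by name (0 unmatched). Whether counting used the strand, and how multi-mapping reads were treated, was not given in the sources used here.

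Genes were kept with filterByExpr (16059 genes), scaled with TMM, and groups compared with edgeR's quasi-likelihood test (R 4.3.3, edgeR 4.0.16, limma 3.58.1), with Benjamini-Hochberg adjustment over all genes tested. Calls needed an adjusted p under 0.05 and a log2 ratio of more than 0.5 either way. The SE is the log2 fold change divided by the square root of F. CPM values are TMM-scaled, and log2 CPM used a prior count of 2. Labels name separate mice, and within-group pairs of libraries differed by more than counting noise (chi-square over degrees of freedom at least 7.49 in 31 pairs). Marker and input lists were summed in CPM. The fits were tested on simulated data. Alternatives left out each mouse in turn, added the replicate number as a block, set the fold change minimum to none or to 1, filtered at 1 count in any mouse or 10 in every mouse, used upper quartile or relative log expression factors, and used limma voom or DESeq2 1.42.0.

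The members and the lists were chosen with earlier results of these data known. Named genes are the 9 members, called genes of the clock and input lists, Arntl, Npas2, Ciart, Tef, Hlf and Nfil3, and the 5 genes most like Dbp and Per2; genes that share exons with a member, and Six6, were named beside them. Gene positions and exon lengths are from Gencode release 39 (GRCm39), and promoters from RefSeq (GRCm38.p6), which held 11 promoters for 8 of the 9 members, Per2 absent.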

Additional observations from a re-analysis of the deposited data

Results flagged for a closer look

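In Dixon's test for a sample far from the others of its group, 3 of 54 comparisons passed the 95% limit, where chance gives about 2.7. Control 5 had a total of 40690226 counts, against 32356909 in the next library of its group. EtOH 1 had a total of 42183031 counts, against 33313165 in the next. Without Control 5 or without EtOH 1 the number of clock genes called was 0, as with all mice. The mean log2 CPM of the 3 bZIP output factors (Tef, Hlf and Nfil3) was 7.01 in EtOH 5, against 6.71 in the next EtOH mouse, and EtOH 5 was also the mouse with the highest Per1, Cry2 and Nr1d1.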

How the results depend on the processing

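Clock genes called numbered 0 in every fit except with the replicate block (1, Per1), without EtOH 2 (1, Per1) and with no fold change minimum (1, Nr1d1), so 0 to 1 over the mice left out. Genes called overall numbered 1162 to 1501 over mice left out, 3810 with no minimum and 524 above 1. Called genes of the other clock and input lists numbered 6, with 3 to 10 over mice left out (3 without Control 2, without Control 4 or without EtOH 3, 10 without EtOH 1), 10 with no minimum and 1 above 1. The log2 fold change of Per2 ranged from -0.0074 (without EtOH 5) to 0.263 (without EtOH 2) over mice left out, and that of Per3 from -0.0709 to 0.0193, positive without Control 6 (0.0158), without Control 7 (0.0193) or without EtOH 3 (0.0190), none past the threshold. Without the 2 mice farthest from the Dbp median, r with Dbp was -0.495 for Per1 and -0.0684 for Cry2. The causes were not tested. Other scalings moved the median log2 fold change of all genes by under 0.01.

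Replicate numbers did not pair the mice, since deviations of same-numbered mice correlated between -0.11 and 0.018. Replicate numbers 6 and 7 occur only among controls, so with the replicate block Controls 6 and 7 do not enter the difference between groups. In that fit the log2 fold change was 0.51 for Per1 (edgeR adjusted p 0.0207), 0.33 for Per2 (0.0391), 0.0783 for Per3, -0.25 for Npas2 (0.0614) and 0.35 for Nfil3 (0.105). With 7 and 5 mice, the intervals of Per1 and Per2 are the widest of the 9, and reach past the fold change minimum.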
